A study of Mus musculus with 2 samples.

Results

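The genes that build and steer actin filaments in a phagocyte were examined for H3K27ac, the acetylation of lysine 27 of histone H3, which is found at active promoters and enhancers. The 40 genes were named by their mouse gene symbols as actin, its nucleators, its regulators and its motors, and all 40 were found among the 21938 protein-coding genes of GENCODE release M21 on GRCm38. A class was given to each gene from textbook expression. The 10 haematopoietic genes, whose expression is known mainly from blood cells, were Was, Wipf1, Nckap1l, Lcp1, Coro1a, Fermt3, Myo1f, Myo1g, Dock2 and Apbb1ip. The other 30 were called general, and of these Arpc1b, Evl and Capg were also tried in the haematopoietic class. The data were chromatin immunoprecipitation and sequencing of unstimulated macrophages grown from bone marrow of C57BL/6J mice, with no treatment or transgene given in the labels. The single group had 2 biological replicates, each begun with 10 ng of DNA. They were separate biosamples under the same donor entry, so the spread between them may be technical, and sex, age and stage were unknown or not collected. With a single group there was no contrast to test, and each value is given for both replicates beside that of all genes.

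Actin monomers polymerise into filaments whose growth pushes the membrane of a macrophage around a particle. The Arp2/3 complex starts new filaments as branches on old ones and is switched on by WASP family proteins and by the WAVE complex, which in turn answer to the GTPases Cdc42 and Rac. Profilin and thymosin handle the monomer pool, cofilin and gelsolin sever filaments, plastin bundles them, talin and kindlin tie them to integrins, and myosins pull on them. Several of these steps are run in blood cells by a paralogue that other tissues hardly use, as WASP is to N-WASP and kindlin-3 to kindlin-2.

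The deposited files were 4 lists of peaks. Replicate 1 had 29543 peaks and replicate 2 had 29345. The list of replicated peaks, made from both replicates together, had 32877. Each peak carries the authors' fold, read from the layout and the values as a linear ratio of signal over control or background, which was used to describe a peak and to rank it within its own list. Genes count as marked here where both replicates have a peak that reaches into the 1 kb on either side of an annotated start of the gene. Read depth is not given in the sources used here, so a gene with no peak did not reach the authors' threshold and may still carry the mark. The cells were measured in bulk, and the mark on few cells cannot be told apart from a weak mark on all of them.

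Of the 40 genes, 38 were marked in both replicates, against 39.4% of all protein-coding genes. By replicate, 38 had a promoter peak in replicate 1, against 40.5% of all genes, and 39 in replicate 2, against 41.6%. All 10 haematopoietic genes and 28 of the 30 general genes were marked. The exceptions were Nckap1 and Myo1e, each the general paralogue of a marked haematopoietic gene. Counted at the 5′ end of the gene alone, 36 were marked, against 36.1% of all genes, and the genes that lost the call were Coro1a and Evl. The highest promoter peak of 25 of the 40 genes, 9 haematopoietic and 16 general, lay in the upper 10% of the replicated list by fold, against 8.20% of all genes. A promoter peak of at least 3 kb in each replicate was seen for 19 of the 40 genes, 6 haematopoietic and 13 general, against 3.57% of all genes. Both counts take the highest peak at any start. At the 5′ end alone the haematopoietic Lcp1, Wipf1 and Coro1a and the general Capg and Evl would leave both counts. The general Arpc3 and Cyfip1 would leave the count of wide peaks. The genes had a median of 5 annotated starts, as had all marked genes, against 3 for all genes.

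The replicates gave close values for most genes. The SD of the fold over the 2 replicates had a median of 4.75% of the mean, and that of the width a median of 130 bp. Fold was higher in replicate 2 for 27 of the 38 marked genes and higher in replicate 1 for 11. The highest promoter peaks of the replicates overlapped for 35 genes and did not for Wasl, Wasf2 and Cfl1.

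The sequences upstream of most haematopoietic genes held few CpG dinucleotides, as the promoters of Was, Myo1f and Fermt3 show beside those of Wasl and Myo1e, the general paralogues of the former pair, and of the cytoplasmic actin gene Actg1. Each stretch runs 5′ to 3′ along the gene and covers 200 bases, from base 250 to base 51 before the RefSeq start, on GRCm38.p6, with each CpG in capitals.
Was, chrX:8090542-8090741, minus strand: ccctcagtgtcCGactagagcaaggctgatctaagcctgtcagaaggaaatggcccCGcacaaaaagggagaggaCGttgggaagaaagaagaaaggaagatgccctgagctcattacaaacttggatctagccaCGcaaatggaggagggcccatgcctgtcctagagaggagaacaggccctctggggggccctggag
Wasl, chr6:24665046-24665245, minus strand: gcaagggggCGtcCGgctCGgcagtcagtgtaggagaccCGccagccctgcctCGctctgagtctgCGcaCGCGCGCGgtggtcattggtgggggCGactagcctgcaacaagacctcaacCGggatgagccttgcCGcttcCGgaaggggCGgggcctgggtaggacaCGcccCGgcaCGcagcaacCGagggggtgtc
Myo1f, chr17:33555457-33555656, plus strand: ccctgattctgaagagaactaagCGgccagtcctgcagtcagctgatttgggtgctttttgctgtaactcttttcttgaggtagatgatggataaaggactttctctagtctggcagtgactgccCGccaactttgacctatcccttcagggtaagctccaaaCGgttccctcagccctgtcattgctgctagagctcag
Myo1e, chr9:70207100-70207299, plus strand: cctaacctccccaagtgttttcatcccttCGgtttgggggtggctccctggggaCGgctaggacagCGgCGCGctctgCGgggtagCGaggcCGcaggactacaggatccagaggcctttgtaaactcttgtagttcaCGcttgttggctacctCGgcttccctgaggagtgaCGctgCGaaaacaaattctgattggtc
Fermt3, chr19:7019520-7019719, minus strand: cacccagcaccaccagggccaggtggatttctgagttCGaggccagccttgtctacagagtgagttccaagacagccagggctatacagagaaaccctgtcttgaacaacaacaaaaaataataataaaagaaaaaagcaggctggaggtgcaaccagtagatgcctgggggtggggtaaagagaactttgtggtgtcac
Actg1, chr11:120348546-120348745, minus strand: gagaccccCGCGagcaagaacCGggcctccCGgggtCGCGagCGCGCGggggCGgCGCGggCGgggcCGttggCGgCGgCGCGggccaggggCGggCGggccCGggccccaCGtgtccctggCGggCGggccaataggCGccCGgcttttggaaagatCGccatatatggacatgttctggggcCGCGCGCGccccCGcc
These stretches held 4 CpGs for Was against 19 for Wasl, 3 for Myo1f against 12 for Myo1e, 1 for Fermt3 and 32 for Actg1. RefSeq promoters, of 300 bases, were matched for 35 of the 40 genes. Actb, Nckap1, Nckap1l, Cyfip1 and Rac1 had no entry, so their promoter sequences were not read. The ratio of observed to expected CpGs had a median of 0.238 over 9 haematopoietic genes and 0.871 over 26 general genes. Over all 16505 protein-coding genes with a RefSeq promoter the median was 0.602, and over the 6374 with a peak of each replicate at that start it was 0.801. A ratio over 0.6 was reached by 3 of the 9 haematopoietic genes and by 22 of the 26 general genes, or 84.6%. It was reached by 50.1% of all genes and by 78.5% of those with a peak at that start, which is near the share of the general genes.

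The 2 cytoplasmic actin genes were both strongly marked. Actb, which encodes beta-actin, had promoter folds of 44.7 and 45.2 in replicates 1 and 2, over 4581 and 4835 bp, and ranked 68 of 32877 in the replicated list. Actg1, which encodes gamma-actin, had folds of 29.4 and 33.3 over peaks of 1339 and 1350 bp. The replicates of Actb lay above both of Actg1 in fold and in width.

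All 8 Arp2/3 genes were marked, with folds that spread widely between subunits. Arpc4 had folds of 42.2 and 43.7 and ranked 118 in the replicated list, but its promoter window also holds a start of Tada3. Arpc1b, the p41 subunit abundant in blood cells, had folds of 31.7 and 37.7, and its peaks were 3589 and 3288 bp wide. Arpc1a, the other form of that subunit, had folds of 4.99 and 9.55 over 719 and 551 bp, the lowest of the complex in each replicate. The 2 genes lie close together on chromosome 5, and both replicates of Arpc1b lay above both of Arpc1a in fold and width; the Arpc1a window holds a start of Kpna7. Arpc3 had folds of 34.8 and 32.0 at coding starts inside the gene and lower folds at its 5′ end in each replicate. Actr3 and Actr2, the actin-related proteins that form the first subunits of the new branch, had folds of 28.7 and 26.0 and of 21.7 and 21.5. Arpc2, a subunit that holds the mother filament, had folds of 24.1 and 25.5. Arpc5 had 13.4 and 15.4, from peaks that also lie within reach of a start of Rgl1.

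Among the activators of Arp2/3, Was and Nckap1l were each more strongly marked than the general form. Was, which encodes WASP, had folds of 21.3 in both replicates and peaks of 2453 and 2401 bp that covered the 5′ end. Wasl, which encodes N-WASP, had folds of 5.68 and 7.04 over 248 and 941 bp, from different peaks in the replicates. Wipf1, the partner that stabilises WASP, had folds of 25.8 and 24.6, at coding starts 43265 and 43971 bp inside the gene, and of 5.51 and 5.36 at its 5′ end. Nckap1l, which encodes HEM1 of the WAVE complex, had folds of 14.7 and 17.5 over 2346 and 2148 bp. For Nckap1, the general form (chr2:80500512-80581380, minus strand), no list held a promoter peak and no replicate held a peak over the gene. The nearest peaks lay 35344 and 35311 bp upstream of it, with folds of 6.88 and 9.05.

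The other WAVE complex genes carried the mark in both replicates. Wasf2, the WAVE protein of blood cells among others, had folds of 21.4 and 23.6 at its 5′ end. Inside the gene, near a start 45496 bp from the 5′ end, the replicate 2 peak had a fold of 45.9 over 8497 bp. In replicate 1 the same region was divided into a peak of 19.1 over 3009 bp, which reached the window, and a peak of 46.1 over 5078 bp, which did not. Its rank of 57 in the replicated list rests on that internal region. Wasf1, the form known from brain, had folds of 9.29 and 6.05 in a window shared with Cdc40. Abi1, a scaffold of the complex, had folds of 27.4 and 28.3. Cyfip1, which binds Rac, had folds of 15.9 and 18.8 at the start of a non-coding transcript 66627 bp inside the gene and of 9.12 and 8.55 at its 5′ end.

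All 5 genes of monomer binding, turnover and capping were marked. Capg, the macrophage capping protein, had the highest folds of this group at 45.6 and 45.8, at starts inside the gene, with 12.4 and 11.6 at its 5′ end. Tmsb4x, which encodes the monomer-sequestering thymosin beta-4, had a fold of 29.8 in both replicates, and its peaks of 7165 and 7693 bp covered 100% of the gene and the 1 kb on either side. Pfn1, which encodes profilin, had folds of 26.0 and 26.8, from peaks that also lie within reach of a start of Eno3. Cfl1, which encodes cofilin, had folds of 20.1 and 20.9, from a peak downstream of the start in replicate 1 and upstream of it in replicate 2. That replicate 2 peak also lies within reach of a start of Mus81. Gsn, which encodes gelsolin, had folds of 16.9 and 18.4 over 4392 and 4442 bp.

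Of the genes that bundle or elongate filaments, the haematopoietic pair was again high. Lcp1, which encodes L-plastin, had folds of 34.9 and 37.7 over 9004 and 8806 bp, but this region lies at the starts of non-coding transcripts 43846 and 45107 bp inside the gene. At its 5′ end the folds were 9.64 and 9.55. Coro1a, which encodes coronin-1A, had folds of 31.6 and 30.5 over 4234 and 3948 bp, and its peaks began beyond 1 kb from the annotated 5′ end, near the start of its RefSeq transcript 2971 bp further in. Evl had folds of 25.7 and 24.5 over 6914 and 6620 bp, at coding starts 80990 and 81033 bp inside the gene alone. Vasp, of the same family, had folds of 11.2 and 11.9 over 713 and 1056 bp at its 5′ end. Both values of Evl lay above both of Vasp.

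Integrin linkage genes were marked throughout. Fermt3, which encodes kindlin-3, had folds of 44.6 and 42.9 over 4147 and 4530 bp and ranked 80 in the replicated list. Apbb1ip, which encodes the Rap1 effector RIAM that recruits talin, had folds of 28.5 and 29.6. Tln1, which encodes talin-1, had folds of 30.3 and 27.7 over 7362 and 8183 bp in a window shared with Creb3. Vcl, which encodes vinculin, had folds of 11.7 and 12.6, from peaks upstream of the 5′ end alone.

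The class I myosins ranged from an unmarked gene to the widest peaks of the 40 genes. Myo1f had folds of 35.9 and 38.2, and its peaks of 13353 and 13415 bp were the widest in each replicate. They ran across the 5′ end, with the summit 8593 and 8625 bp inside the gene. Its close relative Myo1e, known from phagocytic cups and kidney, had no promoter peak in replicate 1 and a fold of 3.85 over 244 bp in replicate 2. In the replicated list the Myo1e peak had a fold of 3.90, at percentile 24.6. Away from its promoter Myo1e was not bare. Over the gene and the 1 kb on either side it held 7 and 9 peaks, which covered 9820 and 10407 bp, or 5.05% and 5.35%. The replicate 2 values include its 2 promoter peaks. Myo1g, a form known from blood cells, had folds of 17.8 and 20.6 over 2268 and 2201 bp. Myh9, the heavy chain of non-muscle myosin IIA, had folds of 11.5 and 10.9 over 4719 and 4118 bp.

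The GTPase switches had moderate folds beside the exchange factor that acts on Rac in blood cells. Dock2, that factor, had folds of 31.5 and 40.1 over 2583 and 2399 bp. Rhoa had folds of 18.2 and 18.9 in a window shared with Tcta. Cdc42 had folds of 16.7 and 15.4, and Rac1 had 12.4 and 14.1. Every Dock2 replicate lay above every replicate of the 3 GTPases.

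**Figure D1:**
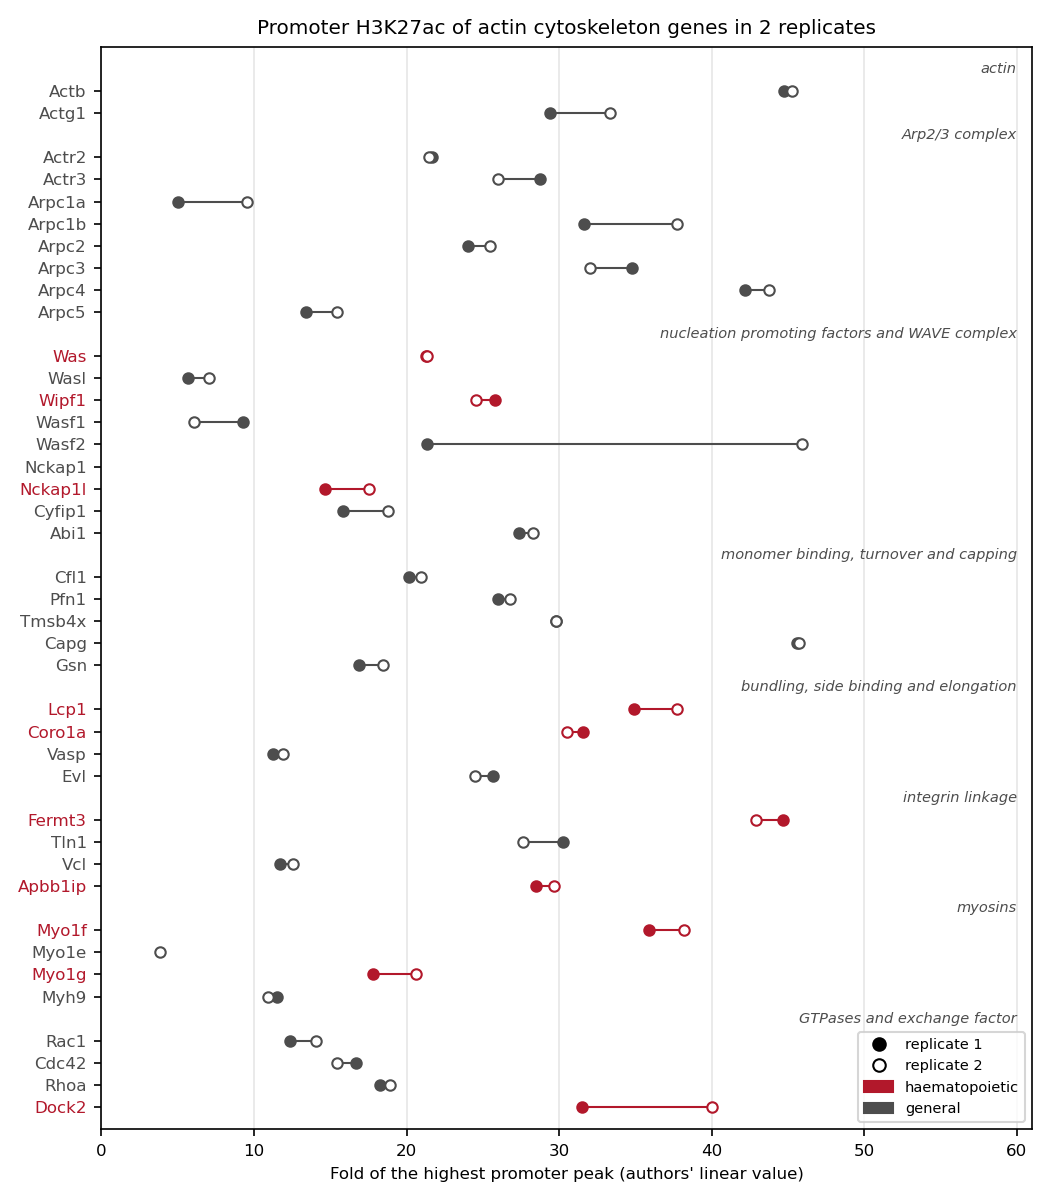
Authors' fold of the highest promoter peak (linear, x axis) of each of the 40 genes, grouped by role, with replicate 1 filled and replicate 2 open and the line spanning both; haematopoietic genes are red and general genes dark grey. Most lines are short; that of Wasf2 runs from 21.4 to 45.9 because the replicates divided an internal region into peaks differently, Nckap1 has no point and Myo1e only a replicate 2 point at 3.85.

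Between the classes, the highest promoter peak of a haematopoietic gene had a median width of 3796 bp and a median percentile of 97.2 in the replicated list. For marked general genes the medians were 3039 bp and 93.4, and for all 8633 marked genes they were 1070.5 bp and 73.8. The median fold in the replicated list was 32.5 for haematopoietic genes, 24.8 for general genes and 11.4 for all marked genes. At the 5′ end alone the classes lay closer, with widths of 2427 and 2122.5 bp, and the order of the ranks turned, to percentile 91.4 for haematopoietic and 92.5 for general genes. Without the 7 genes that share their window with another gene the order of the widths turned too, to 3501 and 3599.5 bp. Under each of these choices both medians stood above those of all marked genes, though the latter were taken at any start, shared windows included. The order of the classes turned for rank with the choice of starts and for width with the choice of genes.

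The 10 haematopoietic genes were set beside 15 paralogues, chosen by family. Since all 10 were marked, the pairs could differ only through the paralogue. Of the paralogues 6 were marked and 9 were not, a share of 40%, which is near the 39.4% of all protein-coding genes. The unmarked paralogues were Wipf2, Wipf3, Nckap1, Pls1, Pls3, Fermt1, Fermt2, Myo1e and Myo1d. Of these, Wipf2 had a peak in replicate 2 alone, with a fold of 5.03. Where both were marked, the haematopoietic gene had the higher percentile in 5 of the 6 pairs and the wider peak in both replicates in 4. These counts take the highest peak at any start. Coro1a, which had no peak within 1 kb of its 5′ end in either replicate, was counted against both Coro1b and Coro1c. Dock1, the widely used relative of Dock2, had folds of 9.29 and 9.05, and Raph1, the relative of Apbb1ip also called lamellipodin, had 8.09 and 9.11. Coro1b had folds of 13.8 and 15.1. Coro1c had 25.6, inside the gene, and 19.1, from peaks of the replicates that did not overlap. The peaks nearest the 5′ end of Coro1c had folds of 11.0 and 12.9. The exception was Myo1c, with folds of 30.8 and 33.0 and percentile 97.8, above Myo1g at percentile 91.0.

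The same comparison was made for further pathway sets. Rac2, the Rac of blood cells, had folds of 23.0 and 23.3, above the 12.4 and 14.1 of Rac1. Hcls1, the cortactin of blood cells, had folds of 35.1 and 34.9, whereas its paralogue Cttn had no promoter peak in either replicate. Arhgdib, a GTPase inhibitor of blood cells, had folds of 25.5 and 26.5 over 4493 and 4416 bp, and the general form Arhgdia had 19.3 and 23.3 over 1769 and 1379 bp. Enah, a relative of Evl, and Wasf3 were unmarked. Arpc1b, Evl, Rac2, Hcls1, Arhgdib, Wasf2 and Actb led sets of their own in the plot of paralogues by rank and width.

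**Figure D2:**
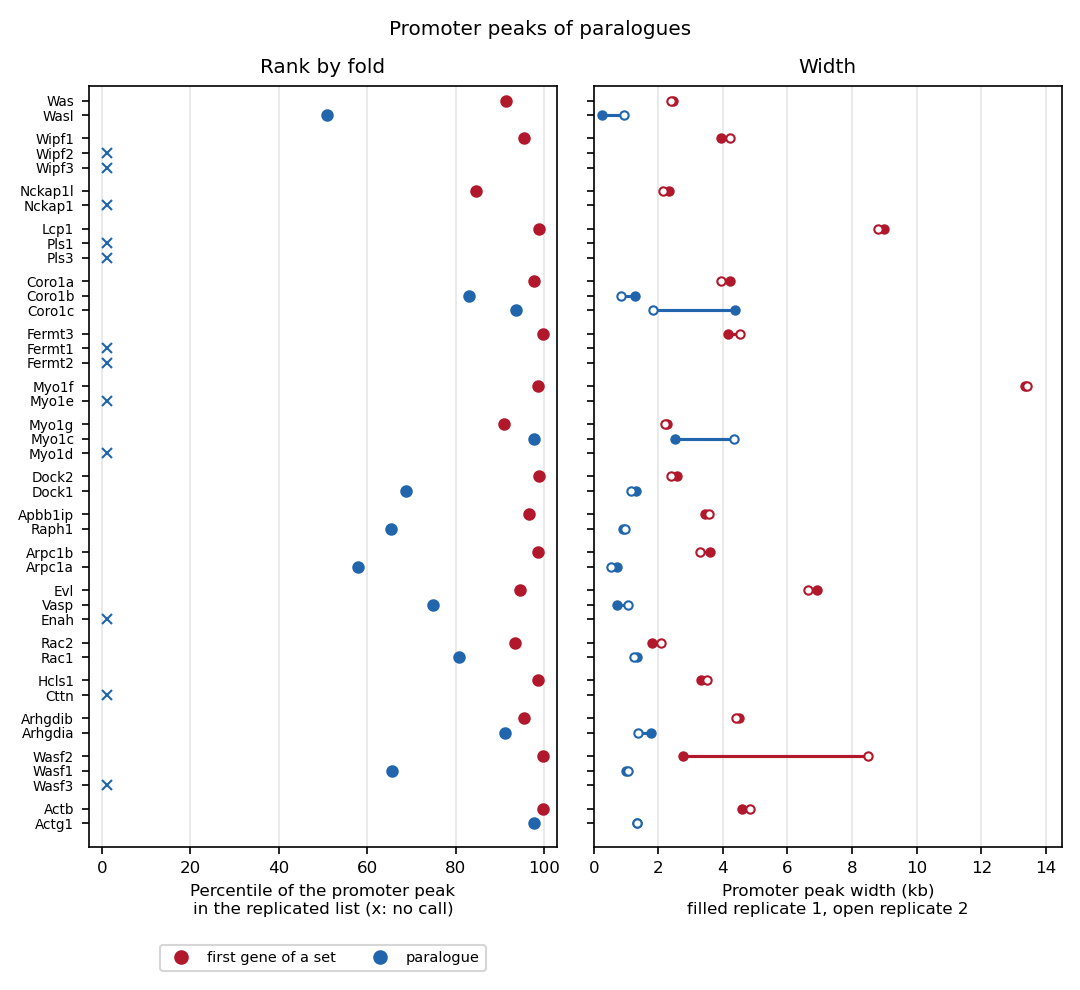
Promoter peaks of paralogue sets: percentile by fold in the replicated list (left, 100 is the highest; a cross at the edge marks a gene not marked in both replicates) and width in kb (right, replicate 1 filled, replicate 2 open). The first gene of each set is red and its paralogues blue; Myo1c stands to the right of Myo1g in rank, at 97.8 against 91.0, and the unmarked paralogues have no width.

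The genes also differed in how acetylation lay around the start. This was examined after other values were seen, and describes whether a peak covered the base of the 5′ end or peaks stood on its sides within 1 kb with a gap between them. Of the 36 genes with peaks of both replicates at the 5′ end, 17 were covered in both and 10 had a gap in both. In 3 a peak lay on a single side in both replicates, and in 6 the replicates differed. For all 7922 such genes the shares were 41.3% covered and 19.0% with a gap. Of 9 haematopoietic genes 8 were covered and none had a gap in both replicates, while of 27 general genes 9 were covered and 10 had a gap. Cdc42 had the longest gap in each replicate, 894 and 880 bp. Rac1 had gaps of 592 and 602 bp, Actg1 of 536 and 532 bp, and Wasf2 of 176 and 118 bp. In Fermt3, Apbb1ip, Was, Nckap1l, Myo1f, Myo1g and Dock2 a single peak of over 2 kb ran across the 5′ end in each replicate, and in Wipf1 a peak of 338 and 369 bp did so.

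**Figure D3:**
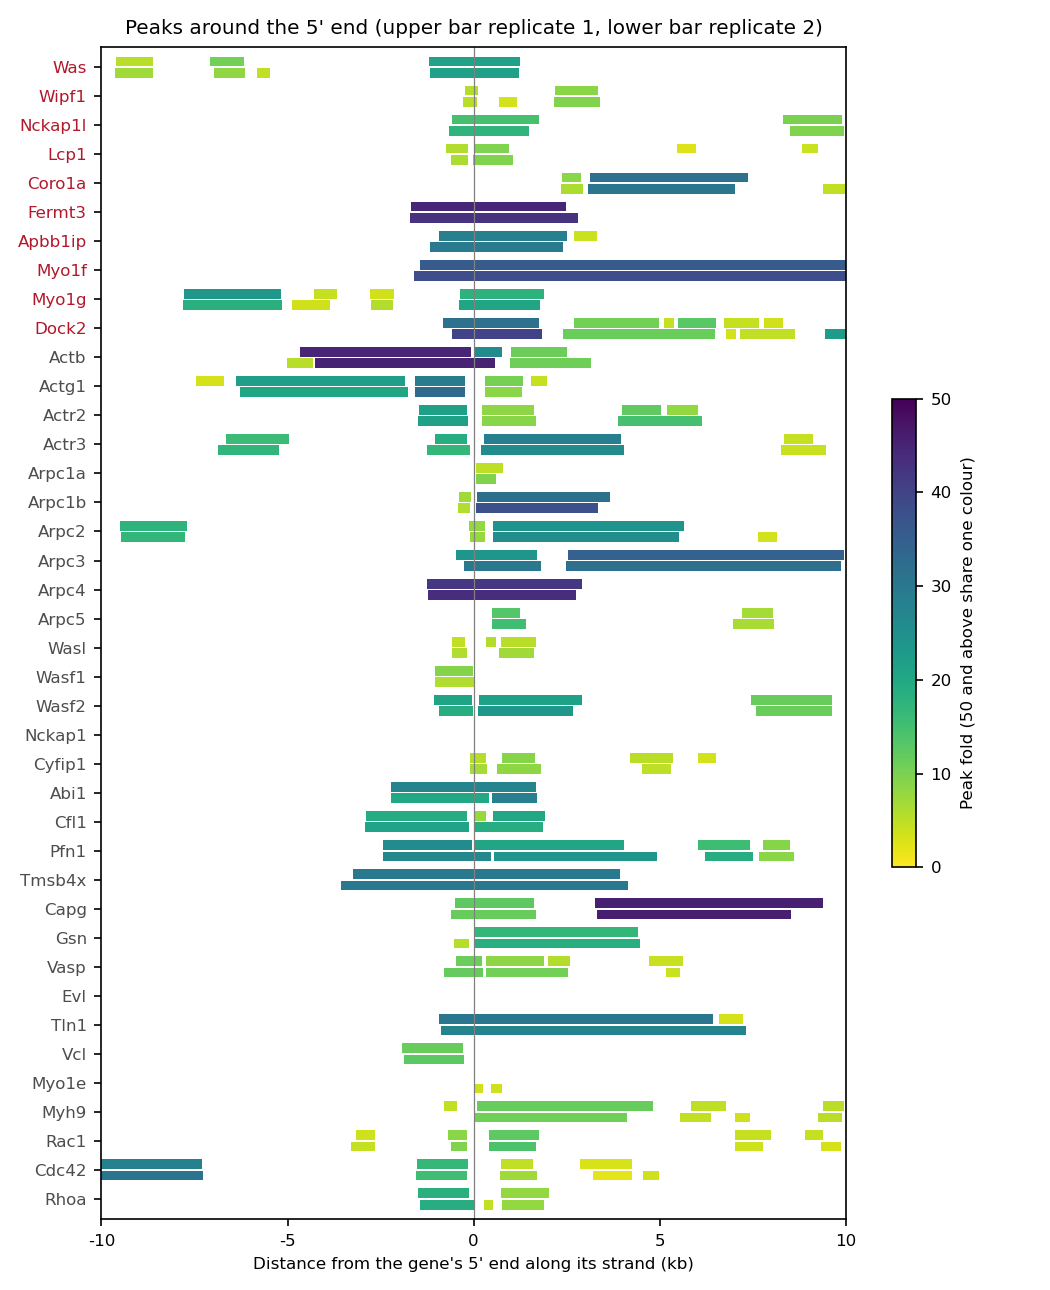
Every peak within 10 kb of the 5′ end of each gene, drawn along the gene's strand (x axis in kb, transcription to the right), replicate 1 above replicate 2, coloured by the authors' fold; haematopoietic names are red and general names grey. Bars run across the line at 0 for Was, Fermt3, Apbb1ip, Myo1f and Dock2 and leave a gap there for Cdc42, Rac1, Actg1 and Actr2; Nckap1 and Evl have no bar.

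CpG content moved with this pattern over all genes with peaks at the 5′ end and a RefSeq start within 500 bp of it. With a cut at a CpG ratio of 0.6, also set after values were seen, 33.8% of the 4556 genes above it were covered at the 5′ end and 23.8% had a gap. Of the 1175 genes at or below it 65.4% were covered and 3.74% had a gap. Among the 22 actin genes above it 6 were covered and 9 had a gap, and among the 9 at or below it 8 were covered and none had a gap. That low group held Abi1, Pfn1 and Vasp beside the haematopoietic Apbb1ip, Dock2, Fermt3, Myo1f, Myo1g and Was. Capg, at a ratio of 0.357, was left out because its RefSeq start lay 5256 bp from its 5′ end. The part of CpG content in the difference between the classes was not tested.

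**Figure D4:**
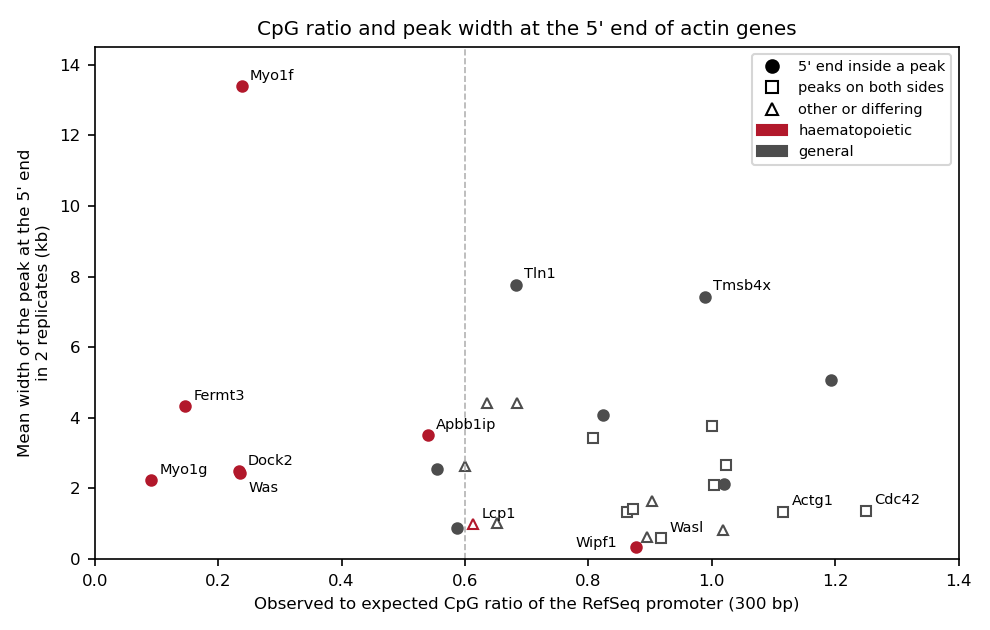
Observed to expected CpG ratio of the RefSeq promoter (x axis) against the width of the highest peak at the 5′ end (y axis, kb). Widths are means over 2 replicates. Genes shown have both values and a RefSeq start within 500 bp of the 5′ end. Filled circles have the 5′ end inside a peak in both replicates. Open squares have peaks on both sides in both replicates, and triangles are other or differing. The squares all lie to the right of the dashed line at 0.6, and Was, Dock2, Myo1f, Myo1g, Fermt3 and Apbb1ip lie to its left.

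Short binding words were counted in the same 300-base promoters, 1 per gene, on both strands, over 35 genes. Actb and the other unmatched genes were not searched. The CArG box, the site of serum response factor, which is known to drive actin genes, was present in 4, all general: Actg1, Vcl, Myo1e and Arpc4. That is 11.4% of the 35, against 1.53% of all 16505 protein-coding genes and 1.22% of those with a peak at that start. The 35 include Myo1e and Evl, which did not have peaks of both replicates at that start. The 4 matches are shown on the gene's strand in capitals.
Actg1, chr11:120348566-120348595, minus strand: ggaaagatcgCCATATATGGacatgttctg
Vcl, chr14:20929161-20929190, plus strand: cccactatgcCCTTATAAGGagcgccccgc
Myo1e, chr9:70207308-70207337, plus strand: gctgaattctCCATTTATGGacagattgcc
Arpc4, chr6:113377863-113377882, plus strand: CCTAATTTGGtgcccaacct
The Actg1 box also lies within the stretch printed above. The PU.1 word GAGGAAGT, after a factor that macrophages need, was found in Apbb1ip and Arpc1b, 5.71% of the 35 against 3.15% of all genes. The RUNX word TGTGGTT was found in Was and Tmsb4x, also 5.71%, against 4.79% of all genes. These places, the ones for blood-cell factors, read as follows, the word or its reverse complement in capitals.
Apbb1ip, chr2:22774321-22774350, plus strand: gggctcaaagcACTTCCTCctccctgagcc
Arpc1b, chr5:145114247-145114276, plus strand: cccccgcccacGAGGAAGTggctgcggcgc
Was, chrX:8090511-8090539, minus strand: cttatttccctTGTGGTTtattgtacttc
Tmsb4x, chrX:167209315-167209343, minus strand: tccgccatcgaTGTGGTTcaaaggcgctg
The general ETS word CCGGAAG, which shares the letters GGAAG with the PU.1 word, was found in 10 of the 35 genes, or 28.6%, against 12.3% of all genes and 23.1% of those with a peak at that start. Among the 10 were Actr2, Actr3, Arpc1a, Arpc3 and Arpc4 of the Arp2/3 complex. The Sp/KLF word GGGCGG was found in 62.9% of the 35, against 48.2% of all genes and 66.8% of those with a peak there. The NFY word CCAAT was found in 11 genes, all general, which is 31.4% against 38.8% of all genes. The NRF1 palindrome was found in Arpc2 alone, against 1.38% of all genes. The AP-1 word TGANTCA was in none of the 35, against 6.99% of all genes. A match is a string of letters and says nothing of binding in these cells.

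Peaks away from promoters were counted within 25 kb of each 5′ end, from replicate 1 peaks that a replicate 2 peak overlapped and that lay over 1 kb from every protein-coding start. At least 1 such distal peak was found for 26 of the 40 genes, 8 haematopoietic and 18 general. It was found for 26.0% of all genes and for 3890 of the 8633 marked genes. The mean number was 2.10 for haematopoietic and 1.67 for general genes, against 0.481 for all genes and 0.889 for marked genes. Without Dock2, which had 6, the haematopoietic mean was 1.67, and with Arpc1b, Evl and Capg counted as haematopoietic the order turned, to 1.62 against 1.85. The genes are long, with a median length of 48537.5 bp for haematopoietic and 31966 bp for general genes against 17425 bp for all genes. The part of gene length in these counts was not tested.

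The 71 distal peaks were all distinct in replicate 1, and the counts follow how that replicate was divided. Some lay under the same replicate 2 peak, as in Dock2 at a replicate 2 fold of 11.4 and in Cdc42 at 29.7. Of the 21 near haematopoietic genes, 11 lay in an intron of the gene itself, 1 in its exon and 9 between genes. Of the 50 near general genes, 23 lay in an intron of the gene itself and 24 between genes, and 3 lay in Camta2, near Pfn1. The 5′ end nearest to the peak was that of the named gene for all 21 and for 45 of the 50. Their median replicate 1 fold was 10.7 near haematopoietic and 6.66 near general genes, against 6.88 for all 15069 shared distal peaks.

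Some of these peaks were as strong as promoters. Cdc42 had 7, of which 5 lay upstream, and a peak 16183 bp upstream had folds of 34.9 and 29.7, above both promoter folds of the gene. Another, 9663 bp upstream and 4725 bp wide, had folds of 28.2 and 30.7. Actb had 3 upstream peaks, and the one 22635 bp away had folds of 33.4 in both replicates. Arpc2 had an intronic peak 13322 bp into the gene with folds of 27.9 and 26.0, beside 24.1 and 25.5 at its promoter. Among haematopoietic genes, a peak 6479 bp upstream of Myo1g had folds of 23.6 and 18.3, and the strongest of the 6 intronic Dock2 peaks, 12310 bp inside, had folds of 20.0 and 22.6. Fermt3 and Myo1f had none within 25 kb, though their promoter peaks were among the strongest.

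**Figure D5:**
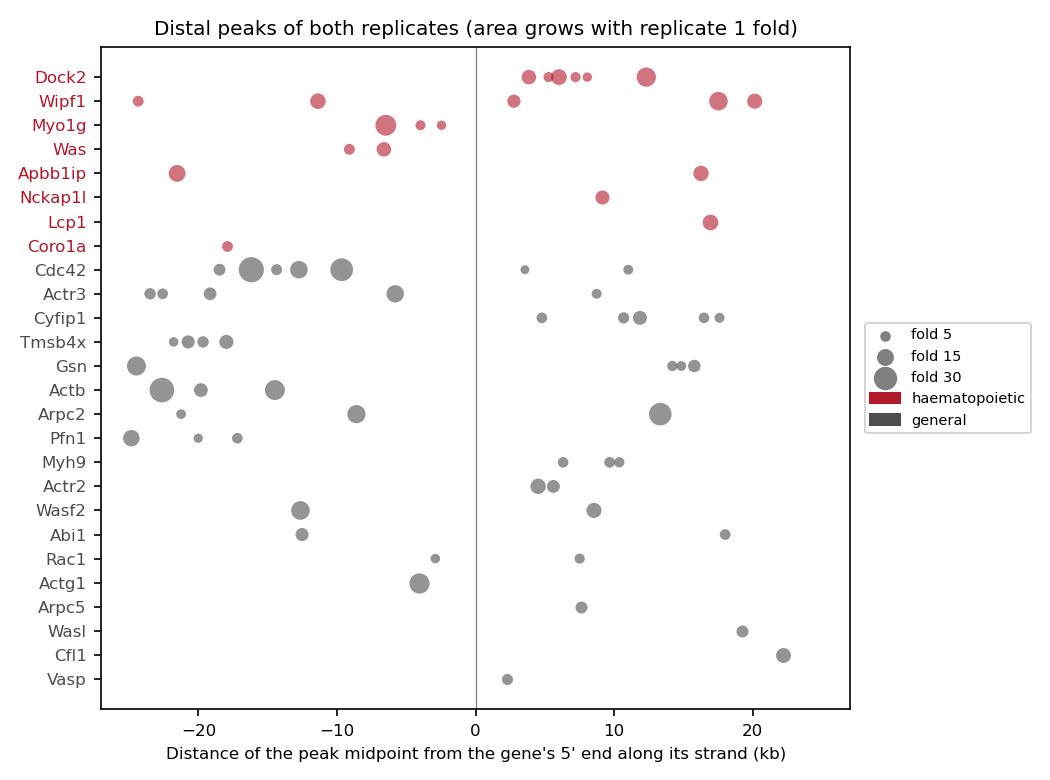
Distal peaks of both replicates within 25 kb of the 5′ end (x axis, kb along the gene's strand) for the 26 genes with at least 1, haematopoietic in red; the area of a point grows with the replicate 1 fold. Cdc42 has the most points, with large ones upstream, and the Dock2 points all lie inside the gene.

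Over the gene and the 1 kb on either side, peaks covered a median of 10116.5 and 9621.5 bp of marked haematopoietic genes in replicates 1 and 2. For marked general genes the medians were 3996 and 4123.5 bp, and for all marked genes 1707 and 1811 bp. As a share of that span the classes lay close, with medians of 19.1% in both replicates for haematopoietic genes and of 17.7% and 18.9% for general genes, against 7.55% and 8.09% for all marked genes. Apbb1ip had the most bases covered, 28133 and 26601 bp over 13 peaks in each replicate, or 27.2% and 25.7%. The highest shares were those of the short general genes Tmsb4x, at 100% in both replicates, and Pfn1, at 97.9% and 98.2%, and Dock2 had 2.80% and 2.94%.

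Of 82 other genes of the pathway, listed by function, 56 were marked in both replicates, or 68.3%, against 39.4% of all protein-coding genes. The median width over those was 1901.25 bp and the median percentile 87.4, both between those of the 38 marked genes above, 3469.75 bp and 95.0, and those of all marked genes. Cap1, a cyclase-associated monomer recycler, had folds of 42.9 and 43.7, and Rhog, a relative of Rac, had 37.9 and 45.4. Paxillin (Pxn), of adhesions, had folds of 37.7 and 37.9, and coactosin (Cotl1) had 33.9 and 35.0. Unmarked were Tln2, Pfn2, Myh10, Rac3 and Vav2 among others. Of 20 muscle and tissue-restricted actin partners only Tnni2 was marked, with folds of 38.5 and 38.0, and Acta1, Acta2, Actc1 and Actg2 had no promoter peak in either replicate.

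Markers of cell types were read by the same call, which 39.4% of all protein-coding genes reached. All 6 macrophage markers were marked, among them Spi1, Csf1r and Adgre1. None of 6 fibroblast and smooth muscle, 3 B cell or 4 neutrophil markers was marked. Lck, of 4 T cell markers, had folds of 4.47 and 4.69, and Pf4, of 3 platelet markers, had 41.6 and 42.6, while Itga2b and Gp9 had no promoter peak.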

How the data were processed

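H3K27ac peak lists of 2 replicates of unstimulated macrophages were used as deposited on mm10. According to the deposited readme texts, the list of each replicate holds pseudoreplicated peaks from its own alignments, and the replicated and pooled lists were made from both replicates together. The deposited fold of each peak was read as a linear ratio from the narrowPeak layout and its values, since no source used here states what the authors divided by. The authors' p-value and q-value of each peak are on a −log10 scale, and the q-value was used in an alternative alone. Aligner, caller, control and depth are not given in the sources used here.

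Genes came from GENCODE M21, without the mitochondrial genome, and promoters from RefSeq on GRCm38.p6. Positions are 1-based. Where several peaks reached a gene's windows, the highest fold was taken. Widths are means of the replicate lists, and ranks are percentiles by fold in the replicated list. Distal peaks were placed by their midpoints. The members and lists were chosen with earlier results of these data known. All 40 members and the fixed paralogues were to be named. Other genes of the pathway and markers are from fixed lists, and the few named with values from the 82 were chosen after their values were seen. Myl12b was not matched. No test was run, since there was a single group. The scripts were tested on simulated peaks. Alternatives were other windows, starts, thresholds, lists, class borders and distances, and each replicate alone. Python 3.11.15, pandas 2.3.3, numpy 2.4.6 and matplotlib 3.10.9 were used.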

Additional observations from a re-analysis of the deposited data

How the results depend on the processing

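The number of marked genes stayed between 36 and 39 over the 10 settings tried, and 34 genes were marked under all of them. Arpc5 lost the call with windows of 500 bp, Coro1a and Evl at the 5′ end alone, and Arpc1a among the 20000 highest peaks. Myo1e gained it in the replicated list, the pooled list and replicate 2 alone. Of 86 class values and counts 41 moved; the cause was not tested except where the setting itself names it. The order of the classes turned in 1 of 9 settings each for width and rank, and in 1 of 11 for distal peaks, the main setting included.

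Median width was, for haematopoietic and general genes in turn, 4091 and 2555.5 bp with Arpc1b, Evl and Capg moved, 2427 and 2122.5 bp at the 5′ end, 3501 and 3599.5 bp without shared windows and 3903.5 and 3823.5 bp in the replicated list. For general genes it was 3438.5 bp with 500 bp windows and 3599.5 bp for the widest peak. Leaving out a replicate gave 3696 to 3757 bp and 3094.5 to 3179 bp. Median percentiles were 97.7 and 92.5 with those 3 genes moved, 91.4 and 92.5 at the 5′ end, 96.7 and 94.4 without shared windows, and 94.1 for general genes with 500 bp windows. Leaving out a replicate gave 96.6 to 96.8 and 91.2 to 92.0.

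Mean distal peaks were 1.62 and 1.85 with those genes moved, 1.20 and 0.533 within 10 kb, 6.70 and 5.10 within 100 kb, and 3.20 and 2.00 in the replicated list. Chosen after seeing the data were 25 kb of any start, with 3.30 and 2.20, haematopoietic genes without Dock2, with 1.67, and general genes without Cdc42, with 1.48. For general genes the mean was 1.79 over marked genes, 1.50 for the nearest gene alone and 1.50 over 2.5 kb from every start. Leaving out a replicate gave 2.20 to 2.60 and 1.77 to 1.80. No paired analysis was possible because there is a single group. Read depth is unknown, which limits what a missing peak says.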
